A study of Mus musculus with 48 samples.

Results

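Pdcd1, Ctla4, Lag3, Tigit, Cd160 and Btla encode inhibitory receptors of T cells, and their chromatin accessibility was followed here through 21 groups of tumour-infiltrating CD8 T cells. A peak of the deposited ATAC-seq table belonged to a gene when it overlapped that gene's protein-coding body. Where it overlapped several bodies, the one with a boundary nearest the middle of the peak was taken, and where it overlapped none, the nearest body within 100 kb. By this rule 44 of the 53868 peaks belonged to the 6 genes. They were 12 at Ctla4, 11 at Tigit, 9 at Pdcd1, 7 at Btla, 4 at Lag3 and 1 at Cd160. Of the 44 peaks 19 overlapped the gene body and 25 lay outside it. All 44 had at least 1 read in each of the 48 libraries.

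Inhibitory receptors dampen signalling from the T cell receptor and its co-receptors. PD-1, the product of Pdcd1, carries a tyrosine motif that recruits the phosphatase SHP-2 after binding its ligands PD-L1 or PD-L2. CTLA-4 competes with the activating receptor CD28 for CD80 and CD86, TIGIT competes with CD226 for the poliovirus receptor family, and LAG-3 binds MHC class II and other ligands. BTLA and CD160 both bind HVEM, the product of Tnfrsf14. In CD8 T cells that meet antigen for long periods, as in tumours, several of these receptors are carried together. BTLA is better known from naive and progenitor-like cells.

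ATAC-seq marks open chromatin by the sites at which the Tn5 transposase inserts its adapters. Each group held OT-1 CD8 T cells, which share a transgenic T cell receptor for an ovalbumin peptide. All donor cells were CD45.1, expressed Cas9 and had been transduced, as naive-like spleen cells, with a lentiviral guide RNA and an ametrine reporter before transfer into young or aged mice, given a day ahead of B16-OVA, a melanoma line that makes ovalbumin. Reporter-positive cells were sorted from the tumours on day 15, and cells of independent mice were pooled into replicates. The cells numbered 5000 to 50000 per combination, and the paired reads were 50 bases long on each side. The perturbation groups are Zfp219KO, Dusp5KO and a control named OTC in the labels, a name that is not explained further there. The sorted states are progenitor exhausted (Tprog, Slamf6+ Tim-3-), transitory and effector-like (Ttran, Slamf6+ Tim-3+), terminally exhausted (Tterm, Slamf6- Tim-3+) and age-associated dysfunctional (Ttad, Slamf6- Tim-3-). Titles carry an A or a Y, taken as aged and young hosts; an age in weeks is not given in the sources used here. Aged hosts gave 24 libraries, 2 for each perturbation and each of 4 states. Young hosts gave 24 libraries without Ttad, 2 per perturbation for Tprog and 3 each for Ttran and Tterm.

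Reads in peaks numbered 5638413 to 16159054 per aged library and 6589023 to 29942755 per young library. Library numbers 1 to 24 occur separately in each age, so the sample sheet and host age cannot be told apart. Of 5 CD8 T cell markers, 4 had peaks (Cd3e, Cd3d, Cd8a, Cd8b1), and their strongest peaks lay between the 91.2 and 98.7 percentile of all peaks. No peak belonged to the B cell genes Cd79a and Ms4a1, to Lyz2, Adgre1, Foxp3, Tyr or Dct. Peaks did belong to Itgam, Cd68, Klrb1c, Ncr1, Cd4, Mlana, Pmel and Sox10. In that order, their strongest peaks lay at the 81.0, 87.8, 90.3, 5.2, 77.1, 62.3, 85.5 and 66.8 percentile of all peaks. Editing was not measured: of the 2 Zfp219 peaks neither was called in Zfp219 libraries of either age, and of the 17 Dusp5 peaks 2 were called lower in aged Dusp5 libraries (12.2% of all peaks were called), and 1 higher and 2 lower in young ones (3.82% of all peaks). Values are normalized reads, that is reads divided by a size factor of the library. Tests are limma fits over all 53868 peaks on log2(value + 1) with Benjamini-Hochberg adjustment, and peaks with an adjusted p below 0.05 are those called. Log2 differences are log2 fold changes on that scale, which understate changes of weak peaks. The p-values measure the spread between replicate pools. In such bulk libraries, fewer cells with a site open and less opening per cell cannot be told apart.

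The start-site regions are shown first because the strongest peak of Pdcd1, Tigit and Btla covered them, and that of Ctla4 lay just downstream. RefSeq's GRCm38.p6 table gave a region from 250 bases before to 50 bases after the start for 5 of the 6 genes, without Lag3. The regions below lay wholly inside a peak. Capitals mark matches, on either strand, to motifs of factor families known in T cells.
Pdcd1, chr1:94052504-94052803, minus strand: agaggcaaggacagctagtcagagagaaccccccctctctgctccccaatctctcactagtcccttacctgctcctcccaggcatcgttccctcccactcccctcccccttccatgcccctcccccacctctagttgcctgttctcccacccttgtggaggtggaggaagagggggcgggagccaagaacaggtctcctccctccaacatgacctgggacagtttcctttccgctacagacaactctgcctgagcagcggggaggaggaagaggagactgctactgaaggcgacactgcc
Ctla4, chr1:60908775-60909074, plus strand: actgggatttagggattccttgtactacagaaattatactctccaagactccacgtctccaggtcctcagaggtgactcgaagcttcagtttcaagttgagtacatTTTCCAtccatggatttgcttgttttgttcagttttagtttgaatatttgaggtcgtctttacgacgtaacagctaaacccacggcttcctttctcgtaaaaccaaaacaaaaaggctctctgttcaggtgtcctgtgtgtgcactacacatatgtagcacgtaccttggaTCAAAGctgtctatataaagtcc
Tigit, chr16:43664135-43664434, minus strand: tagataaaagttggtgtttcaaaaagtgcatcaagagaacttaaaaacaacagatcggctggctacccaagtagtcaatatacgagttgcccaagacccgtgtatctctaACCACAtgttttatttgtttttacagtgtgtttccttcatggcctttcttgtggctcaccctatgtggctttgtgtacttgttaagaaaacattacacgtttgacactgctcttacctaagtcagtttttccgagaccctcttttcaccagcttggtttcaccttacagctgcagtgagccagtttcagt
Btla, chr16:45224087-45224386, plus strand: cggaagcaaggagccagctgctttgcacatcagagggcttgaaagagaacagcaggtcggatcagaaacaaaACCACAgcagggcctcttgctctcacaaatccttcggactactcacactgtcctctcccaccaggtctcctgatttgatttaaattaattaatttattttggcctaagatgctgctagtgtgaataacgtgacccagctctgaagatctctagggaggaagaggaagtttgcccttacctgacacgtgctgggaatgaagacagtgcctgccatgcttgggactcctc
The motifs searched on both strands were TGANTCA (AP-1), TGGAAA (NFAT), TCAAAG (TCF/LEF), TGTGGT (RUNX), AAGGTCA (NR4A), AGGTGTG (T-box) and CCGGAAG (ETS). Ctla4 held an NFAT match that began 144 bases before the start and a TCF/LEF match. Tigit and Btla each held a RUNX match, and the Pdcd1 window held none of these letters. Among 32851 RefSeq start-site regions of the same length, 21.4% held the NFAT letters, 16% the TCF/LEF letters and 16.8% the RUNX letters. GC content was 60.7% at Pdcd1, 49.0% at Btla, 42.0% at Ctla4 and 41.3% at Tigit. A match is a description of letters and says nothing of binding.

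The 6 loci differed in how many open sites they held and how far these spread. The broadest was the Pdcd1 start-site peak at chr1:94051833-94056880, 5047 bp wide with a mean of 2864 normalized reads over the libraries. Pdcd1 also had strong peaks 17 kb downstream, past the gene's end (chr1:94034797-94036401, mean 1564), and 22.4 kb upstream (chr1:94074301-94075623, mean 1064). At Ctla4, which lies between the activating receptor genes Cd28 and Icos, the strongest peak was 3.3 kb past the start (chr1:60910936-60913780, mean 1562), and 6 of the 12 peaks lay 9.8 to 55.2 kb upstream. Tigit had its strongest peak at the start (chr16:43663433-43665205, mean 1429) and nearly as strong a peak 34.6 kb upstream (chr16:43697801-43699755, mean 1392). The far end of the Tigit body overlaps Zbtb20. Lag3 had its strongest peak 1825 bp outside the gene body (chr6:124900509-124902534, mean 1070), close to Ptms and Cd4. Btla was strongest at its start (chr16:45223024-45225303, mean 490), and Cd160 had a single peak at its start (chr3:96812632-96814753, mean 536). Distance was the only basis for these assignments, and exons and introns were not resolved.

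Most of these sites were open in every group and moved about as much as other peaks of their level, with Btla as the exception. The median peak of the 44 had a highest group mean 1.77 times its lowest, against 2.48 over all peaks and 1.84 over the 19885 peaks in the middle range of their levels. Among Lag3 peaks this ratio was 1.33 to 1.75, among Pdcd1 peaks 1.37 to 3.32, among Ctla4 peaks 1.3 to 4.7 and among Tigit peaks 1.45 to 4.19. Among Btla peaks it was 2.21 to 13.62 with a median of 8.39. Several Btla peaks were weak, with means down to 11.4 normalized reads, where such ratios are less certain. The Btla peak 27.8 kb past the start, with a mean of 160, had a ratio of 8.39. Peaks of Btla also moved together: over the 21 group means Pearson's r was 0.52 to 0.92 in all 21 pairs of its peaks. At Ctla4 30 of 66 pairs had a negative r, with a range of -0.72 to 0.72, and at Pdcd1 8 of 36 did. These r values share libraries and depth and describe the groups only.

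**Figure D1:**
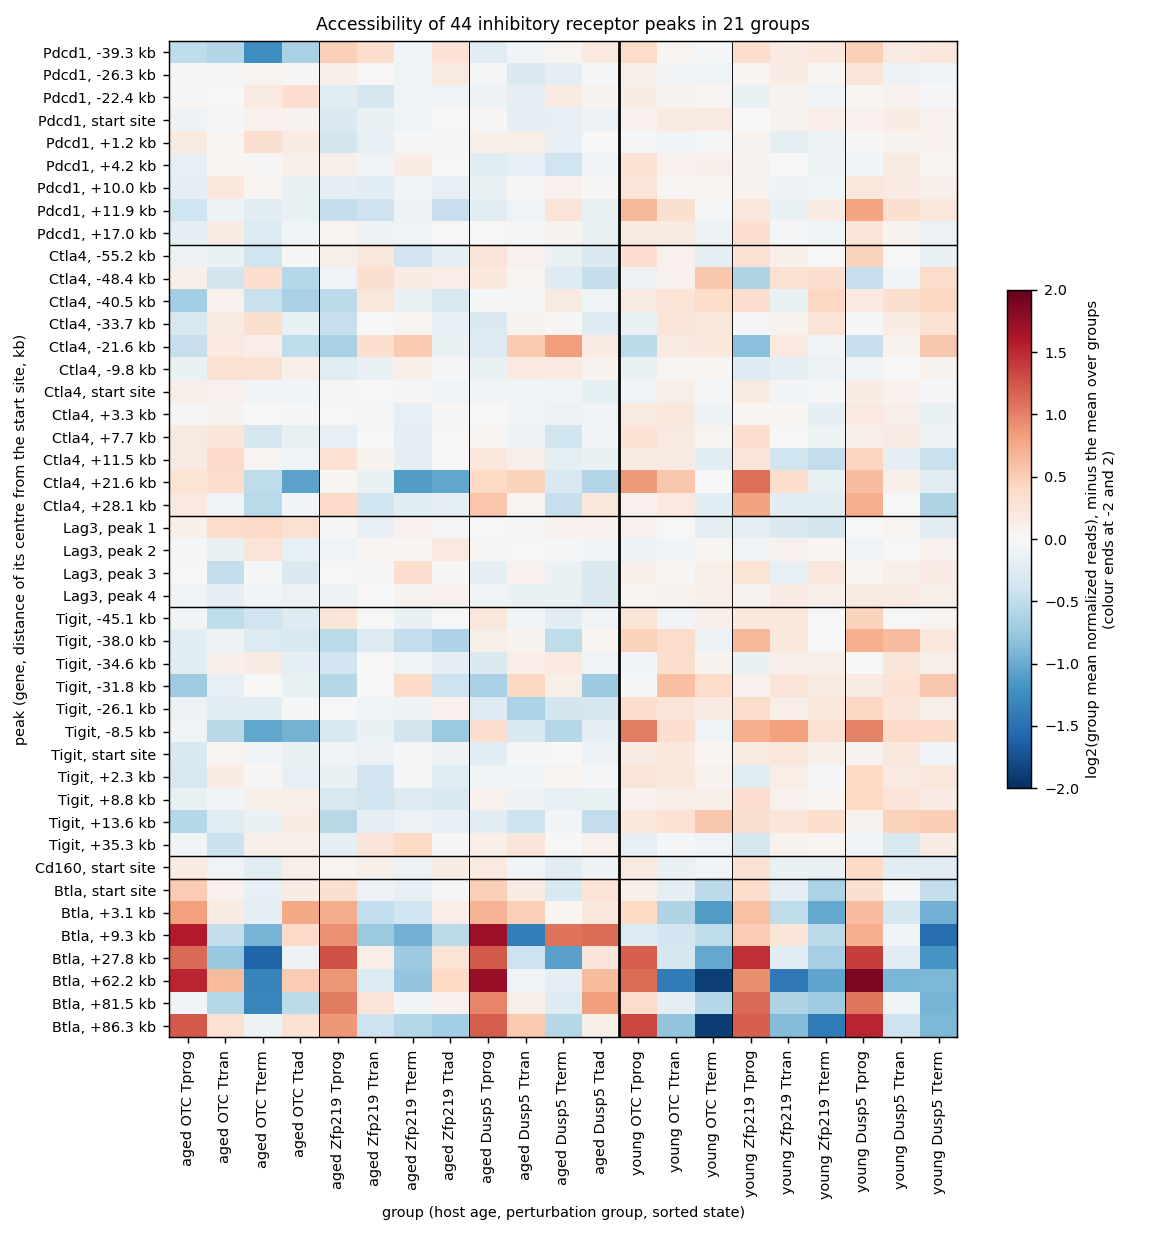
Each row is a peak, ordered by gene and position, and each column one of the 21 groups; colour gives the log2 group mean of normalized reads minus the mean over groups. Btla peaks are red in the Tprog columns of both ages, and most Tigit peaks are redder in the young columns on the right.

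Summed over all peaks of a locus, the order of the groups differed between genes. Btla totals were highest in the 6 Tprog groups, from 1403 ± 63.2 (SD, n = 2) in aged Dusp5 to 1150 ± 62.5 (SD, n = 2) in young OTC, and lowest in young OTC Tterm at 498 ± 23.7 (SD, n = 3). The Tprog groups did not overlap the other 15. Tigit totals separated by host age instead, with all 9 young groups, down to 5263 ± 244 (SD, n = 3) in OTC Tterm, above all 12 aged groups, which began at 4912 ± 93.8 (SD, n = 2) in Dusp5 Tterm and ended at 4265 ± 32.7 (SD, n = 2) in OTC Tprog. These aged and young means did not overlap, but single libraries did: the lowest young OTC Tterm library (4987) lay below the highest of aged OTC Ttran (5005) and aged Dusp5 Ttran (4991). The remaining loci had few gaps between neighbouring groups. Pdcd1 ran from 8483 ± 43.2 (SD, n = 2) in young OTC Tprog to 6798 ± 95.7 (SD, n = 2) in aged Zfp219 Ttran. Ctla4 ran from 5838 ± 142 (SD, n = 3) in young OTC Ttran to 4774 ± 18.8 (SD, n = 2) in aged Zfp219 Tprog. Lag3 ran from 2663 ± 30.7 (SD, n = 2) in aged OTC Tterm to 2189 ± 24.3 (SD, n = 3) in young Zfp219 Tterm. At these 3 genes, and at Cd160 (708 ± 15.3, n = 2, in young Dusp5 Tprog to 460 ± 5.85, n = 3, in young Dusp5 Tterm, SD), 19 of the 20 steps between neighbours in the order overlapped in their libraries. Against this, 16 of 20 steps overlapped for Btla and 17 of 20 for Tigit.

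The first question was how progenitor and terminal control cells differ. In aged OTC cells 16 of the 44 peaks were called, 9 higher and 7 lower in Tprog, where 20.1% of all peaks were called, 8.88% higher and 11.2% lower. In young OTC cells it was also 16, but 14 higher and 2 lower, where 26.5% of all peaks were called, 13.9% higher and 12.6% lower. Among the 5387 peaks with the strongest means 30.1% were called in aged and 36.1% in young cells. The median log2 fold change of the 44 peaks was -0.002 in aged and 0.20 in young cells, against 0.014 and 0.007 over all peaks. In each age 5 of 7 Btla peaks rose in Tprog, and upstream of Ctla4 3 peaks fell in aged and 2 in young cells. Marker genes of other cell types moved as well. The summed level of the myeloid genes (2 of 4 with peaks, Lyz2 and Adgre1 without) was 794 in aged Tprog against 1139 in aged Tterm, and 1017 against 1080 in young cells. Cd4 (Foxp3 had no peak) had 219 against 430 in aged and 410 against 495 in young cells. The melanoma genes (3 of 5 with peaks, Tyr and Dct without) had 948 against 829 and 1185 against 952, and the NK cell genes (2 of 2 with peaks) 732 against 611 and 697 against 693. Their part in the state results was not tested. Over all 17 comparisons 37 of the 44 peaks were called at least once, and 7 never were.

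Btla, the HVEM receptor, was the gene that changed most between states. Its peak 27.8 kb past the start (chr16:45251652-45252657) had 324 and 280 normalized reads in the aged OTC Tprog libraries, 73.7 and 89.3 in Ttran, 33.8 and 56.8 in Tterm and 116 and 139 in Ttad. In young OTC cells it had 299 and 329 in Tprog, 114, 106 and 108 in Ttran, and 60.7, 62.9 and 79.3 in Tterm. No 2 states overlapped in either age, and the order from the highest was Tprog, Ttad where it was sorted, Ttran and Tterm. Between Ttad and Ttran, however, none of the 7 Btla peaks was called. The log2 fold change of Tprog against Tterm was 2.75 (SE 0.24, limma adjusted p = 2.05e-16) in aged and 2.21 (SE 0.22, adjusted p = 4.21e-14) in young cells, and the difference between the ages was not called (0.55, SE 0.33, adjusted p = 0.497). Ttad lay above Tterm by 1.51 (SE 0.24, adjusted p = 3.83e-06) and below Tprog by a log2 difference of -1.24 (SE 0.24, adjusted p = 0.000228).

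The Btla start-site peak, which covers the sequence printed above, moved the same way by less. It had 659 and 738 normalized reads in aged OTC Tprog against 467 and 415 in Tterm, and 490 and 562 in young OTC Tprog against 360, 325 and 342 in Tterm. Tprog libraries lay above Tterm libraries in both ages, with log2 fold changes of 0.66 (SE 0.13, limma adjusted p = 4.26e-05) and 0.62 (SE 0.12, adjusted p = 2.15e-05). Of the 7 Btla peaks 5 were called in each age, each of them higher in Tprog, and the median over the 7 was 1.31 in aged and 1.51 in young cells. The weak peak 62.2 kb downstream had 52.1 and 56.8 normalized reads in aged Tprog against 8.72 and 6.41 in Tterm, and 43.7 and 38.5 in young Tprog against 3.16, 7.86 and 4.50 in Tterm. Its log2 fold changes were 2.71 (SE 0.64, adjusted p = 0.000752) and 2.84 (SE 0.59, adjusted p = 7.03e-05). The peak 86.3 kb downstream was called in young cells (3.08, SE 0.48, adjusted p = 2.44e-07) and not in aged ones (1.31, SE 0.53, adjusted p = 0.0687). The peak 9.3 kb past the start was called in aged cells alone, at levels under 35 normalized reads; without replicate 1 of aged Tprog its adjusted p was 0.115, without replicate 2 of Tprog 0.0545 and without replicate 2 of Tterm 0.141.

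**Figure D2:**
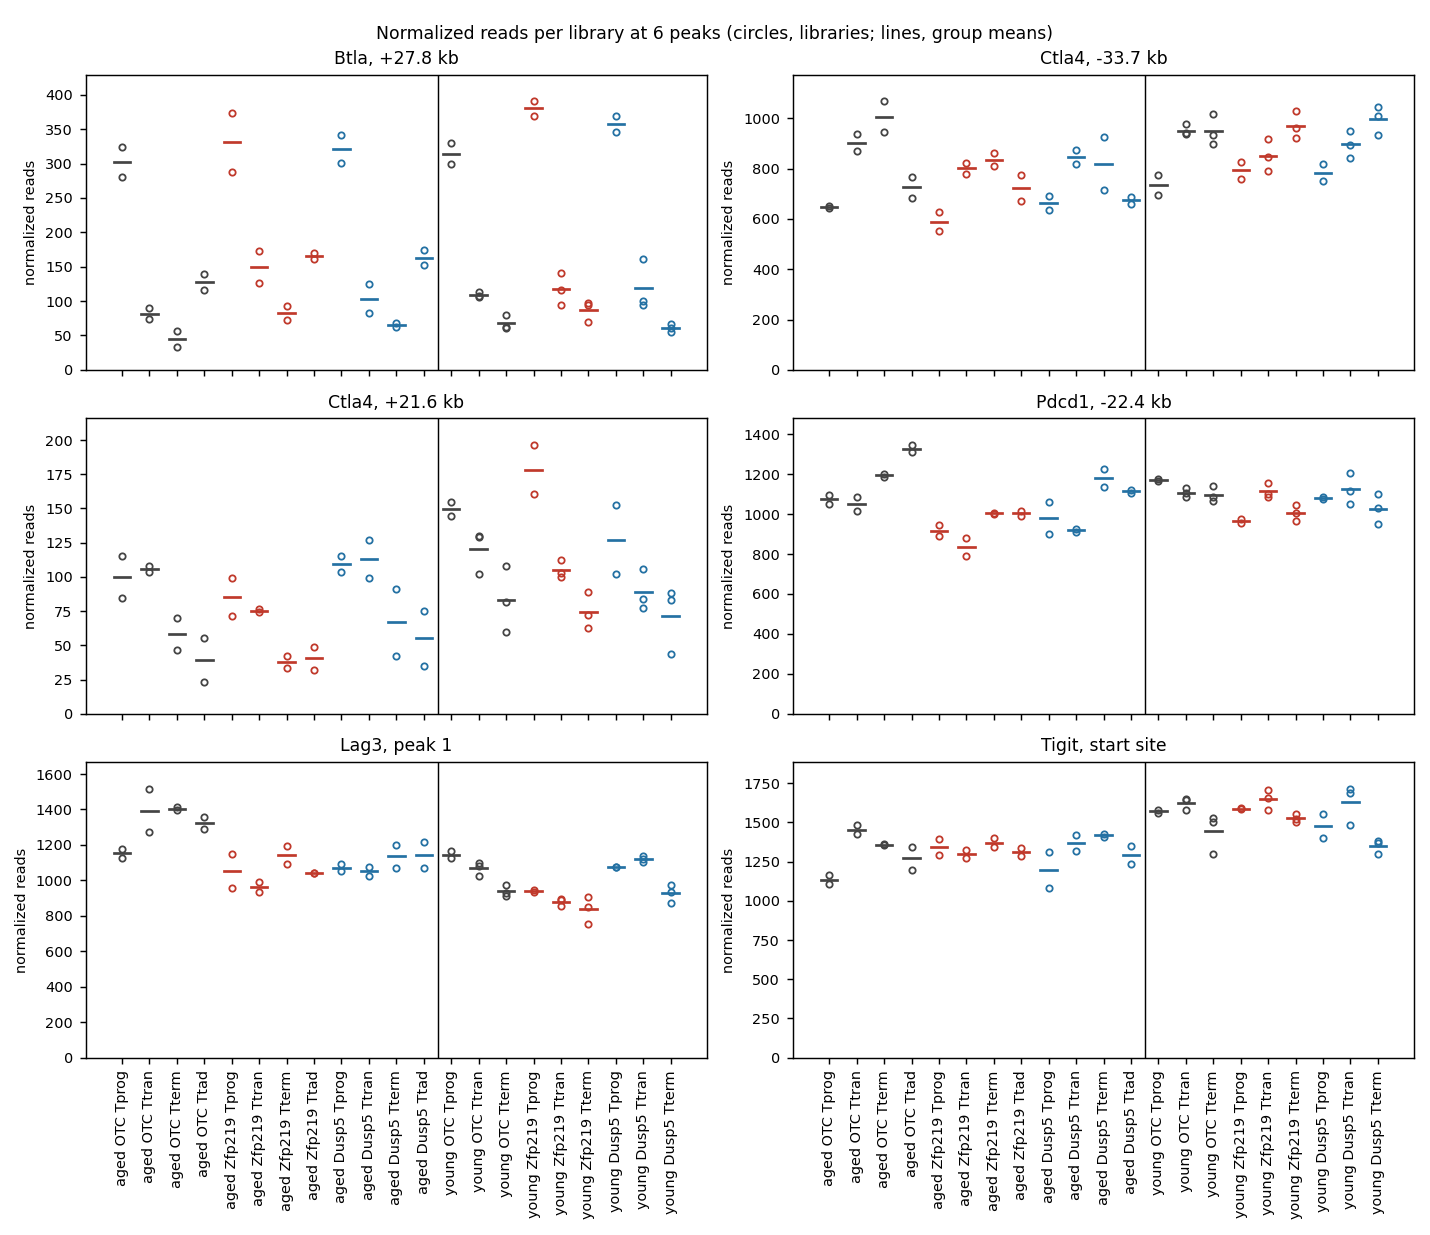
Normalized reads per library (circles) and group means (lines) at 6 peaks, with the linear axis from 0 and aged groups left of the vertical line; grey is OTC, red Zfp219 and blue Dusp5. The Btla peak stands at 280 or more in every Tprog library, and the Tigit start-site peak is higher in most young groups.

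Ctla4, the CD28 competitor, fell in Tprog at 3 upstream peaks in aged and 2 in young cells, and rose at 1 peak past its start in aged and 3 in young cells. A peak 55.2 kb upstream rose in young Tprog. The peak 33.7 kb upstream (chr1:60874520-60876114) had 642 and 649 normalized reads in aged OTC Tprog, 869 and 937 in Ttran, 944 and 1067 in Tterm and 768 and 685 in Ttad. In young OTC cells it had 696 and 775 in Tprog, 937, 940 and 976 in Ttran, and 934, 1017 and 896 in Tterm. Tprog libraries were the lowest in both ages. The log2 fold change of Tprog against Tterm was -0.64 (SE 0.10, limma adjusted p = 2.34e-07) in aged and -0.37 (SE 0.09, adjusted p = 0.000864) in young cells; without replicate 1 of young Tprog the latter had an adjusted p of 0.0631. The peak 9.8 kb upstream was lower in aged Tprog (798 and 853 against 1088 and 1132 normalized reads, log2 difference -0.43, SE 0.10, adjusted p = 0.000301). In young cells it was not called (873 and 780 against 969, 872 and 932, adjusted p = 0.165). The peak 21.6 kb upstream (chr1:60886620-60888129) was lower in young Tprog (114 and 116 against 184, 197 and 192, log2 difference -0.72, SE 0.20, adjusted p = 0.00283). In aged cells it was called too (132 and 107 against 163 and 200, adjusted p = 0.0375), but not without replicate 2 of Tprog (0.296) or of Tterm (0.29).

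Past the Ctla4 start every peak called between Tprog and Tterm was higher in Tprog. The strongest peak of the gene, 3.3 kb downstream, had 1749 and 1773 normalized reads in young OTC Tprog and 1905, 1744 and 1807 in Ttran, all above the 1459, 1471 and 1414 of Tterm. Its log2 fold changes against Tterm were 0.28 (SE 0.07, limma adjusted p = 0.000736) for Tprog and 0.33 (SE 0.06, adjusted p = 6.53e-05) for Ttran. In aged cells the peak had 1594 and 1579 in Tprog and 1631 and 1506 in Tterm, which overlapped. The peak 7.7 kb downstream rose in aged Tprog (482 and 462 against 360 and 304, log2 difference 0.51, SE 0.14, adjusted p = 0.00353; 0.114 without replicate 2 of Tterm). The start-site peak itself, over the printed sequence, was not called in any of the 17 comparisons. In young cells 6 of 12 Ctla4 peaks were called, and 4 of the 6 were higher in Tprog, 3 of these downstream of the start and 1 at 55.2 kb upstream. Of those 4, only the strongest peak of the gene kept its call without either Tprog replicate. Without replicate 1 and without replicate 2 of young Tprog, the adjusted p was 0.0535 and 0.122 at 55.2 kb upstream, 0.118 and 0.177 at 11.5 kb downstream and 0.0839 and 0.133 at 21.6 kb downstream.

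**Figure D3:**
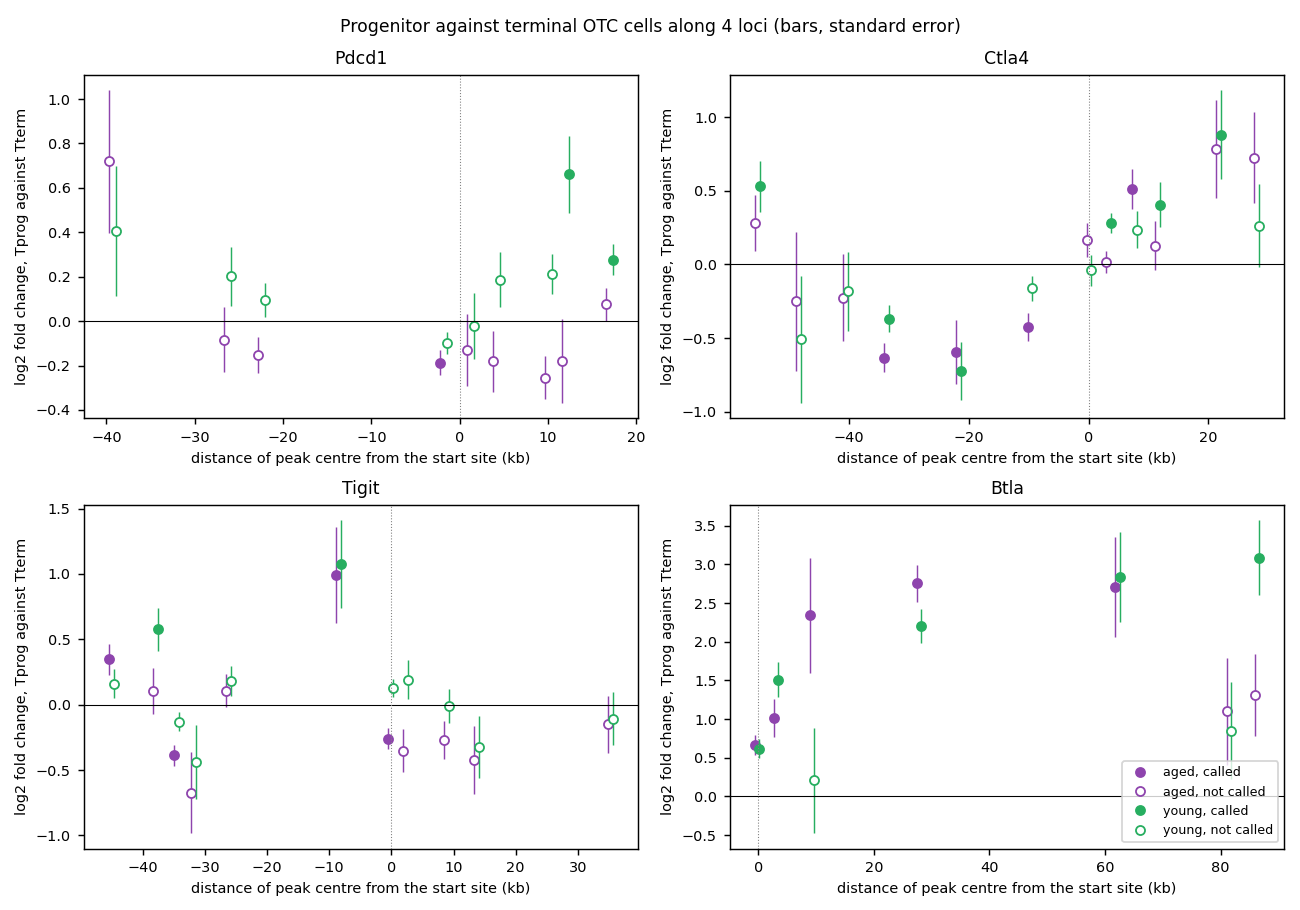
Log2 fold change of Tprog against Tterm in OTC cells for each peak, by distance of its centre from the start site in kb; purple is aged, green young, filled points were called and bars are standard errors. At Ctla4 called points lie below 0 between 33.7 and 9.8 kb upstream and above 0 downstream and, in young cells, 55.2 kb upstream, and at Btla all called points lie above 0.

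Pdcd1 showed small changes at strong peaks. Its peak 17 kb downstream of the start was highest in Ttran of aged OTC cells, at 1653 and 1784 normalized reads, against 1315 and 1406 in Tprog, 1318 and 1264 in Tterm and 1549 and 1380 in Ttad. In young cells Tprog (1784 and 1752) and Ttran (1832, 1782 and 1689) both lay above Tterm (1432, 1429 and 1517). Ttran rose over Tterm by 0.41 (SE 0.07, limma adjusted p = 0.000133) in aged and 0.28 (SE 0.06, adjusted p = 0.000859) in young cells, and young Tprog by 0.28 (SE 0.07, adjusted p = 0.000846). The broad Pdcd1 start-site peak had 2517 and 2749 normalized reads in aged Tprog against 2929 and 3063 in Tterm (log2 difference -0.19, SE 0.06, adjusted p = 0.00798). That call was lost without replicate 1 of Tprog (adjusted p = 0.251), without replicate 2 of Tterm (0.12) and under quantile normalization (0.635). The 5387 peaks with the strongest means, which include 11 of the 44, had a median log2 fold change of -0.11 in that comparison.

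Tigit, the CD226 competitor, was lower in aged Tprog than in aged Ttran and Tterm at both of its strong peaks. At 34.6 kb upstream, aged OTC Tprog had 1153 and 1186 normalized reads and Ttad 1214 and 1180, all below the 1552 and 1384 of Ttran and the 1545 and 1514 of Tterm. Tprog was below Ttran by -0.33 on the log2 scale (SE 0.08, limma adjusted p = 0.00146), a call lost under quantile normalization (0.225) and without replicate 1 of aged Ttran (0.0837). The log2 fold change against Tterm was -0.39 for Tprog (SE 0.08, limma adjusted p = 8.65e-05) and -0.35 for Ttad (SE 0.08, adjusted p = 0.00136). In young cells Ttran stood out, at 1705, 1658 and 1832 against 1328 and 1281 in Tprog and 1414, 1362 and 1508 in Tterm. Tprog was below Ttran by a log2 difference of -0.41 (SE 0.07, adjusted p = 8.5e-06), and Ttran above Tterm by 0.28 (SE 0.07, adjusted p = 0.00186). The Tigit start-site peak had 1163 and 1107 in aged Tprog, 1482 and 1425 in Ttran and 1354 and 1362 in Tterm. Tprog was the lowest, with log2 fold changes of -0.36 (SE 0.08, adjusted p = 0.000298) against Ttran and -0.26 (SE 0.08, adjusted p = 0.00912) against Tterm; under quantile normalization the adjusted p values were 0.0948 and 0.327. The call against Tterm was also lost without replicate 2 of Tprog (0.11) and without replicate 1 (0.0516) or 2 (0.0597) of Tterm. The weak Tigit peak 38.0 kb upstream rose in young Tprog (312 and 311 against 196, 212 and 219, log2 difference 0.57, SE 0.16, adjusted p = 0.00407).

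Lag3, the MHC class II receptor, was the one gene whose strongest peak had opposite calls between Tprog and Tterm in the 2 ages. That peak had 1178 and 1129 normalized reads in aged OTC Tprog against 1395 and 1416 in Tterm, and 1125 and 1164 in young OTC Tprog against 976, 913 and 931 in Tterm. The Tprog libraries of both ages lay within 1125 to 1178, while Tterm was above them in aged and below them in young cells. The log2 fold changes were -0.28 (SE 0.09, limma adjusted p = 0.00975) and 0.28 (SE 0.08, adjusted p = 0.00325), and their difference was -0.57 (SE 0.12, adjusted p = 0.000968). The aged call was lost without replicate 2 of Tprog (0.0987), without replicate 2 of Tterm (0.0705) and under quantile normalization (0.288), and the young one without replicate 2 of Tprog (0.0568). The test of the difference between ages called 3 of the 44 peaks, all lower, and 2.32% of all peaks, 0.512% higher and 1.81% lower. These 3 are among the 5387 peaks with the strongest means, of which the test called 12.6%. The median log2 difference of those strong peaks was -0.126, against -0.027 over all peaks. Of the 44 peaks the test called 1 without either replicate of aged Tprog, either of aged Tterm or replicate 2 of young Tterm. The Lag3 call was kept whichever library was left out. The other Lag3 peaks were not called between states. Cd160, the other HVEM receptor, had 668 and 536 in aged Tprog against 528 and 406 in Tterm (log2 difference 0.37, SE 0.13, adjusted p = 0.026). The Cd160 libraries overlapped, and the call was lost without replicate 1 of Tprog (0.441) or replicate 2 of Tterm (0.512). In young cells the value was 0.23 (SE 0.12, adjusted p = 0.126).

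Counts of called peaks in the smaller aged comparisons moved with single libraries. Between aged Tprog and Tterm the 16 calls became 10 without replicate 2 of Tprog and 7 without replicate 2 of Tterm, and 7 were kept whichever library was left out. These were 2 of Ctla4, 1 of Tigit and 4 of Btla. Between aged Tprog and Ttran 12 peaks were called, 3 higher and 9 lower (17% of all peaks, 6.98% higher and 9.99% lower), and 6 without replicate 1 of Ttran. In young cells this comparison gave 8, 5 higher and 3 lower (16.9% of all peaks, 7.82% higher and 9.07% lower), and 5 without replicate 1 of Tprog. Between Ttran and Tterm the calls were 3 in aged cells (3.22% of all peaks, 1.87% higher and 1.35% lower) and 6 in young cells (8.38% of all peaks, 5.02% higher and 3.36% lower), all higher in Ttran, and the young count was 3 without replicate 2 of Tterm. Of the 16 young calls between Tprog and Tterm 9 were kept whichever library was left out.

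Ttad cells, sorted as negative for both markers, were set against each other aged OTC state. Against Tterm 4 of the 44 peaks were called, 2 of Btla higher and 1 each of Ctla4 and Tigit lower (7.28% of all peaks, 3.02% higher and 4.26% lower). Against Tprog 4 were called, 2 of Pdcd1 higher and 1 each of Ctla4 and Btla lower (6.55% of all peaks, 3.82% higher and 2.73% lower). Against Ttran 7 were called, 1 higher and 6 lower (7.74% of all peaks, 3.02% higher and 4.72% lower). The Pdcd1 peak 22.4 kb upstream was highest in Ttad, at 1311 and 1345 normalized reads, against 1051 and 1098 in Tprog, 1017 and 1084 in Ttran and 1188 and 1202 in Tterm. No Ttad library overlapped another state there, but against Tterm no Pdcd1 peak was called. The log2 fold changes were 0.31 (SE 0.08, limma adjusted p = 0.0106) against Tprog and 0.34 (SE 0.08, adjusted p = 0.00365) against Ttran. The first was lost under quantile normalization (0.183), without replicate 1 of Tprog (0.138), and without replicate 1 (0.0504) or 2 (0.0787) of Ttad. The second was lost without replicate 1 of Ttran (0.0655). The weak Ctla4 peak 21.6 kb downstream had 23.5 and 55.4 in Ttad against 108 and 104 in Ttran (log2 difference -1.52, SE 0.33, adjusted p = 0.0011; 0.186 without replicate 1 of Ttad). Of the 15 calls in these 3 comparisons, the Btla peak 27.8 kb past the start, against Tterm and Tprog, and the Tigit peak 34.6 kb upstream, against Tterm, were kept whichever library was left out. The 4 calls against Tterm were 2 without replicate 2 of Tterm. The 4 against Tprog were 2 without replicate 1 of Tprog or either Ttad replicate. The 7 against Ttran were 4 and 3 without replicates 1 and 2 of Ttad and 3 without replicate 1 of Ttran.

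Host age was compared in OTC cells over the mean of Tprog, Ttran and Tterm. In aged hosts 23 of the 44 peaks were called, 6 of them higher and 17 lower, where 36.5% of all peaks were called, 17.3% higher and 19.1% lower. Among the 5387 peaks with the strongest means 43.8% were called. Of 11 Tigit peaks 8 were lower, of 9 Pdcd1 peaks 5 were lower, and of 7 Btla peaks 4 were higher and 1 lower. Ctla4 had 1 peak higher and 2 lower, Lag3 1 each way, and Cd160 none. The median log2 fold change was -0.43 over Tigit peaks, -0.16 over Pdcd1 peaks and 0.43 over Btla peaks, against 0.002 over all peaks. Over the same groups the summed level of the melanoma genes (3 of 5 with peaks, Tyr and Dct without) was 829 to 948 in aged and 952 to 1185 in young groups, and that of the CD8 T cell genes 4183 to 4332 and 4640 to 4806. Their part in the age results was not tested.

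Tigit was lower in aged hosts at 8 of its 11 peaks, weak ones and the start-site peak among them. Its other strong peak, 34.6 kb upstream, had 1153 to 1552 normalized reads with a median of 1449 in aged libraries. Young ones had 1281 to 1832 there with a median of 1461, which overlapped. The weak peak 8.5 kb upstream (chr16:43672132-43673222) had 37.4 and 62.1 normalized reads in aged Tprog, 43.6 and 28.7 in Ttran and 35.9 and 15.6 in Tterm. In young cells it had 110 and 106, then 63.6, 75.05 and 62.3, then 46.1, 55.0 and 51.2. Within each state no aged library reached the young ones, and the mean log2 fold change was -1.03 (SE 0.20, limma adjusted p = 1.21e-05). At the Tigit peak 45.1 kb upstream (chr16:43708228-43710328) the 6 aged libraries had 289 to 463 normalized reads with a median of 377, and the 8 young ones 452 to 582 with a median of 491 (log2 difference -0.43, SE 0.07, adjusted p = 5.93e-08). The ranges overlapped across states and not within them. The peak 26.1 kb upstream had 364 to 483 with a median of 448 in aged and 501 to 666 with a median of 595 in young libraries, without overlap (log2 difference -0.44, SE 0.07, adjusted p = 7.73e-08). The Tigit start-site peak had 1107 to 1482 with a median of 1358 against 1301 to 1649 with a median of 1569 (log2 difference -0.24, SE 0.04, adjusted p = 2.23e-06). Its difference was -0.47 (SE 0.08, adjusted p = 2.63e-06) in Tprog, where 15.4% of all peaks were called, and it was not called in Ttran or Tterm. Tigit peaks 13.6 kb past the start and 31.8 kb upstream were lower as well. The first had 54.1 to 107 with a median of 78.1 against 112 to 158 with a median of 124, without overlap (log2 difference -0.66, SE 0.14, adjusted p = 7.44e-05). The other had 50.6 to 108 with a median of 73.0 against 65.9 to 142 with a median of 120, which overlapped (log2 difference -0.59, SE 0.17, adjusted p = 0.003).

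With age, 5 Pdcd1 peaks were lower, and 4 Btla peaks were higher and 1 lower. By state, Pdcd1 had 5 peaks called lower in Tprog, 1 in Ttran and 1 in Tterm. Of all peaks 9.04%, 9.58% and 8.77% were called lower in those states. The median log2 fold change over Pdcd1 peaks was -0.38 in Tprog, -0.04 in Ttran and -0.08 in Tterm. The weak Pdcd1 peak 39.3 kb upstream (chr1:94091397-94092390) had 33.0 to 62.2 normalized reads with a median of 48.6 over the 6 aged libraries and 65.3 to 111 with a median of 84.8 over the 8 young ones, which did not overlap (log2 difference -0.89, SE 0.17, limma adjusted p = 1.93e-05). The Pdcd1 peak 11.9 kb past the start had 140 to 220 with a median of 174 against 190 to 385 with a median of 234, which overlapped (log2 difference -0.54, SE 0.10, adjusted p = 1.06e-05). The Pdcd1 start-site peak was lower by less, at 2517 to 3063 with a median of 2830 against 2977 to 3262 with a median of 3185 (log2 difference -0.16, SE 0.03, adjusted p = 5.59e-06). The adjusted p of the start-site peak was 0.114 with a single value per group. The Btla start-site peak had 415 to 738 with a median of 533 in aged and 325 to 562 with a median of 424 in young libraries, higher in aged hosts within each state except for 1 aged Ttran library (451) that lay below 1 young one (458). The Btla difference was 0.34 (SE 0.07, adjusted p = 4.43e-05), and 0.70 (SE 0.14, adjusted p = 1.61e-05) at the peak 3.1 kb past the start. The weak Btla peak 62.2 kb downstream had a difference of 1.01 (SE 0.35, adjusted p = 0.0168), which was lost with a single value per group (0.0532) and without replicate 3 of young Ttran (0.0606). The Btla peak 27.8 kb past the start was the lower one (-0.36, SE 0.13, adjusted p = 0.0235). That call was lost without replicate 2 of aged Tprog (0.0735), replicate 1 of aged Tterm (0.188), replicate 1 of aged Ttran (0.0759), replicate 2 of young Tprog (0.0633) or replicate 3 of young Tterm (0.0553), and with the replicate block (0.0991). The Ctla4 peak 40.5 kb upstream was lower in aged hosts, at 44.2 to 94.1 with a median of 61.4 against 77.1 to 125 with a median of 98.4 (log2 difference -0.61, SE 0.16, adjusted p = 0.00135). The strongest Lag3 peak was higher in aged hosts, at 1129 to 1515 with a median of 1333 against 913 to 1164 with a median of 1051 (log2 difference 0.32, SE 0.05, adjusted p = 1.2e-08). Of the 23 calls 18 were kept whichever library was left out, and 14 were called with a single value per group.

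**Figure D4:**
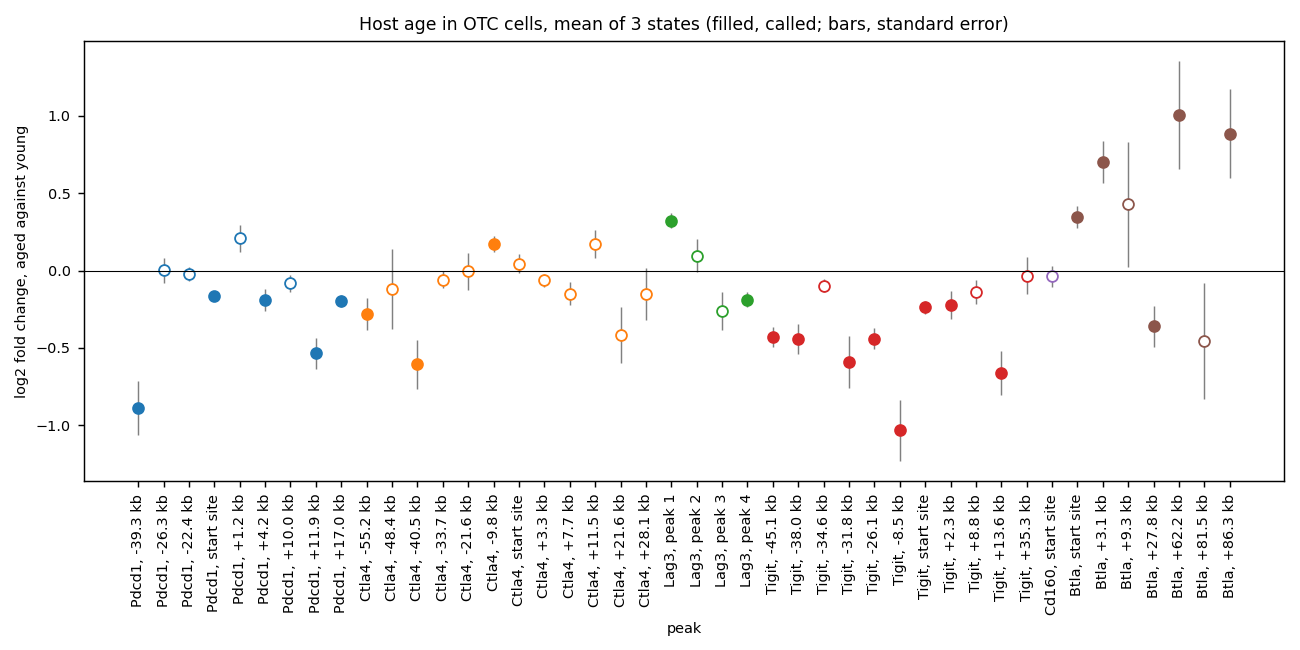
Log2 fold change of aged against young OTC cells, mean over Tprog, Ttran and Tterm, for the 44 peaks in order of gene and position; filled points were called and bars are standard errors. Points of Tigit lie below 0, while 4 called Btla points lie above it and 1 below.

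Perturbed cells were then compared with OTC cells of the same age. Both perturbations share the OTC libraries, so their values below are given side by side and are not independent. In aged hosts, over the mean of 4 states, Zfp219 libraries differed at 15 of the 44 peaks, 4 higher and 11 lower (25.8% of all peaks, 12.1% higher and 13.7% lower), and Dusp5 libraries at 9, 4 higher and 5 lower (12.2% of all peaks, 4.35% higher and 7.87% lower). In young hosts, over 3 states, Zfp219 libraries differed at 4, all lower (7.07% of all peaks, 1.92% higher and 5.15% lower). Dusp5 libraries differed at none by limma (3.82% of all peaks, 1.8% higher and 2.02% lower), where 4 peaks had an unadjusted limma p under 0.05 and edgeR called 1. Leaving out replicate 2 of young Dusp5 Tprog, of young Dusp5 Ttran or of young OTC Ttran gave 1 call. Per gene, aged Zfp219 calls were 5 of 9 peaks at Pdcd1, 4 of 11 at Tigit, 2 of 4 at Lag3, 2 of 7 at Btla and 2 of 12 at Ctla4. Of the 15 calls 9 were kept whichever library was left out. Strong peaks were called more often than all peaks. Of the 5387 strongest, which include 11 of the 44, 39.6% were called for aged Zfp219 and 32.3% for aged Dusp5. In young hosts these shares were 22.7% and 8.3%. Marker genes of other cell types differed too. Summed melanoma genes were 829 to 948 over the 4 aged OTC states, 697 to 899 with Zfp219 and 674 to 826 with Dusp5, lower in each state. NK cell genes were 569 to 732 in aged OTC, 687 to 822 with Zfp219 and 621 to 746 with Dusp5. Cd4, whose peak lies near those of Lag3, was 219 to 436 in aged OTC, 261 to 416 with Zfp219 and 167 to 315 with Dusp5. The CD8 T cell genes summed to 4183 to 4335 in aged OTC and 4189 to 4464 with Zfp219. With Dusp5 they summed to 3726 to 4070, lower than OTC in each state. Their part in the perturbation results was not tested.

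At Pdcd1, 2 upstream peaks changed in opposite directions in aged Zfp219 cells. The peak 22.4 kb upstream had 1017 to 1345 normalized reads with a median of 1143 in the 8 aged OTC libraries, 791 to 1017 with a median of 968 in aged Zfp219 and 898 to 1224 with a median of 1083 in aged Dusp5. Within each state the Zfp219 libraries lay below the OTC ones. The log2 fold change was -0.30 (SE 0.04, limma adjusted p = 3.74e-09) for Zfp219 and -0.15 (SE 0.04, adjusted p = 0.00649) for Dusp5. The latter was lost under quantile normalization (0.358) and with 1 value per group (0.176). The peak 39.3 kb upstream had 33.0 to 62.2 with a median of 48.6 in aged OTC, 74.1 to 133 with a median of 94.4 in aged Zfp219 and 46.8 to 138 with a median of 73.1 in aged Dusp5. No Zfp219 library overlapped OTC, while 2 Dusp5 libraries lay within the OTC range. The log2 fold change was 0.99 (SE 0.16, adjusted p = 6.1e-07) for Zfp219 and 0.67 (SE 0.16, adjusted p = 0.00182; 0.0584 with a single value per group) for Dusp5. In young hosts it was 0.11 (SE 0.16, adjusted p = 0.779) and 0.15 (SE 0.16, adjusted p = 0.707). Over Tprog, Ttran and Tterm, the Zfp219 effect differed between the ages by 0.91 (SE 0.25, adjusted p = 0.00965). Ttad was left out of that test, while the aged values above include it. The test called 3 of the 44 peaks, 2 higher and 1 lower, and 9.11% of all peaks, 4.09% higher and 5.01% lower. Aged OTC libraries were the low ones, since young OTC ran from 65.3 to 111. The peak 1.2 kb past the Pdcd1 start fell with Zfp219 in aged hosts, from 218 to 364 with a median of 316 in OTC to 193 to 273 with a median of 254 (log2 difference -0.31, SE 0.08, adjusted p = 0.0021).

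**Figure D5:**
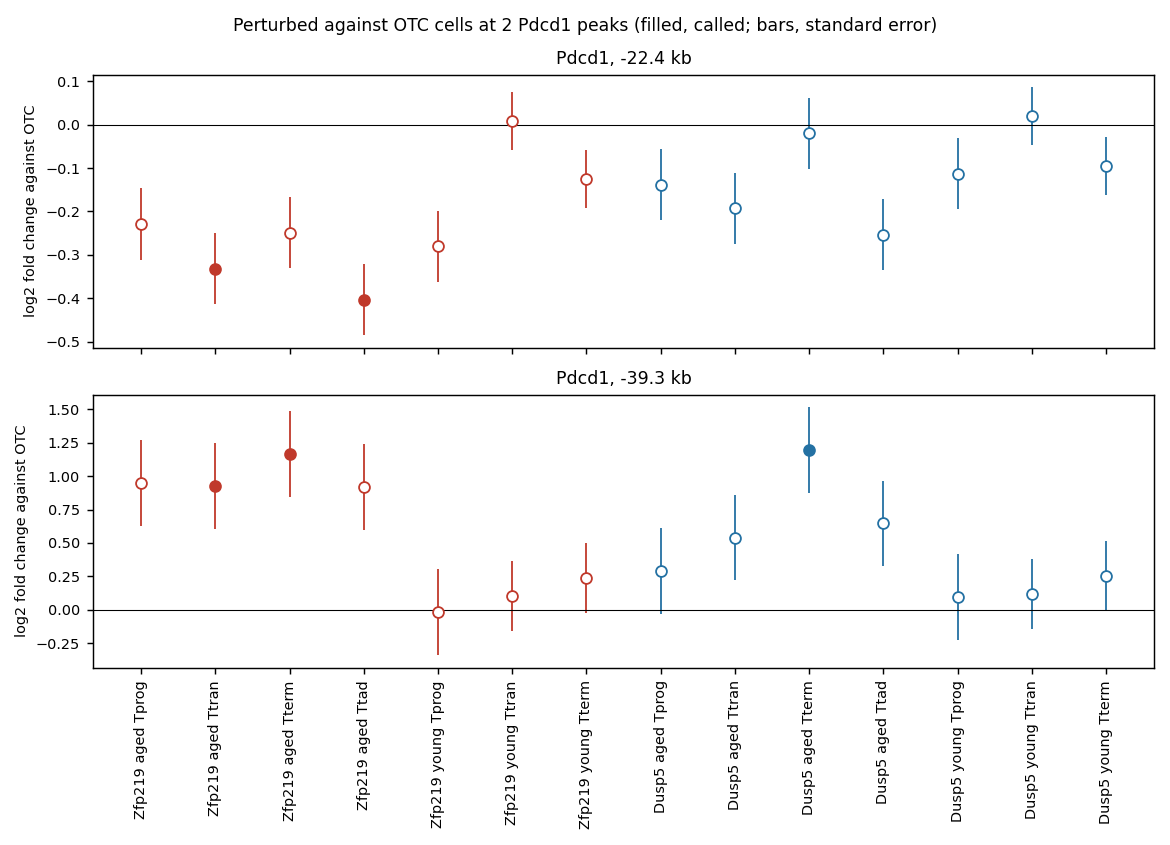
Log2 fold change against OTC of the same age and state at the Pdcd1 peaks 22.4 and 39.3 kb upstream, red for Zfp219 and blue for Dusp5; filled points were called and bars are standard errors. At 39.3 kb the 4 aged Zfp219 points lie between 0.92 and 1.17, and the 3 young ones between -0.02 and 0.24.

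At Lag3 the strongest peak fell with both perturbations in aged hosts. Aged OTC libraries had 1129 to 1515 normalized reads with a median of 1324, aged Zfp219 936 to 1192 with a median of 1042 and aged Dusp5 1026 to 1217 with a median of 1074. The ranges overlapped through the OTC Tprog libraries, at 1178 and 1129. The log2 fold change was -0.33 (SE 0.04, limma adjusted p = 1.29e-09) for Zfp219 and -0.26 (SE 0.04, adjusted p = 4.14e-06) for Dusp5. In young hosts Zfp219 libraries had 755 to 945 with a median of 892 against 913 to 1164 with a median of 1051 in OTC (-0.25, SE 0.04, adjusted p = 3.07e-05), and young Dusp5 libraries had 874 to 1137 with a median of 1075. Over Tprog, Ttran and Tterm, without Ttad, the Dusp5 effect differed between the ages by -0.26 (SE 0.07, adjusted p = 0.00918). This was the one peak of the 44 called in that test (4% of all peaks, 1.27% higher and 2.73% lower). With a single value per group its adjusted p was 0.197.

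Tigit, Btla and Ctla4 had further calls in aged perturbed cells. The Tigit peak 45.1 kb upstream had 289 to 463 normalized reads with a median of 385 in aged OTC, 403 to 581 with a median of 478 in aged Zfp219 and 364 to 589 with a median of 455 in aged Dusp5. Its log2 fold change was 0.34 (SE 0.06, limma adjusted p = 3.75e-06) for Zfp219 and 0.27 (SE 0.06, adjusted p = 0.000892; 0.0671 with a single value per group) for Dusp5, against 0.04 (SE 0.06, adjusted p = 0.774) and 0.06 (SE 0.06, adjusted p = 0.696) in young hosts. The Tigit peak 8.8 kb past the start fell with Zfp219, from 290 to 372 with a median of 332 to 215 to 304 with a median of 265 (-0.33, SE 0.07, adjusted p = 0.000146). The Btla peak 27.8 kb past the start rose with Zfp219 (0.56, SE 0.12, adjusted p = 0.000157), by 0.86 in Ttran (adjusted p = 0.00842), from 73.7 and 89.3 to 174 and 126 normalized reads, and by 0.89 in Tterm (adjusted p = 0.0191), from 33.8 and 56.8 to 93.1 and 72.5. Its Dusp5 value was 0.33 (SE 0.12, adjusted p = 0.0609). The Btla peak 3.1 kb past the start fell with Zfp219, from 99.9 to 239 with a median of 184 to 77.3 to 216 with a median of 121, which overlapped (-0.39, SE 0.13, adjusted p = 0.0133). That call was lost without replicate 1 of Zfp219 Ttad (0.0523) or replicate 2 of Zfp219 Tterm (0.0732). The Ctla4 peak 21.6 kb upstream rose with Dusp5, from 107 to 200 with a median of 148 to 121 to 301 with a median of 213 (0.47, SE 0.11, adjusted p = 0.000893). Aged Dusp5 Tterm, at 291 and 301, lay above every aged OTC library there. The Ctla4 peak 9.8 kb upstream fell with Zfp219, from 798 to 1139 with a median of 1084 to 729 to 1012 with a median of 830 (-0.22, SE 0.05, adjusted p = 0.000151).

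Other genes of the same pathways were taken from lists written with earlier results of these data known. Over all peaks 8.88% were higher and 11.2% lower in aged Tprog against Tterm, and 13.9% and 12.6% in young cells, and many of the counts below are near those shares. Ligand genes (8 with peaks of 9 listed, 50 peaks) had 6 peaks higher and 8 lower in aged Tprog against Tterm, 6 and 7 in young cells, and 7 and 12 with age (17.3% and 19.1% of all peaks). The strongest peak was called between Tprog and Tterm for 3 of the 8 genes in each age, and was not called for Cd274, Cd80, Cd86, Pvr and Nectin2. Tnfrsf14, which encodes the HVEM that Btla and Cd160 bind, was higher in Tprog at its strongest peak in aged (0.67, SE 0.12, limma adjusted p = 6.79e-06) and young cells (0.81, SE 0.11, adjusted p = 3.52e-09). Pdcd1lg2, which encodes PD-L2, was higher in Tprog by 0.46 (SE 0.10, adjusted p = 0.00042) and 0.60 (SE 0.10, adjusted p = 2.57e-07), and Lgals3, a ligand described for LAG-3, was lower by log2 fold changes of -0.62 (SE 0.09, adjusted p = 8.02e-09) and -0.48 (SE 0.08, adjusted p = 5.03e-07). The activating receptors Cd28, Icos and Cd226 (47 peaks) had 5 higher and 2 lower in aged Tprog and 9 and 6 in young Tprog. Among 8 other inhibitory receptors (47 peaks) 5 were higher and 13 lower in aged Tprog, against 7 and 11 in young Tprog. Havcr2, which encodes the sorted marker Tim-3, was lower there, with log2 fold changes of -1.21 (SE 0.08, adjusted p = 4.68e-22) in aged and -0.97 (SE 0.08, adjusted p = 2.36e-19) in young cells. The phosphatase genes Ptpn6, Ptpn11 and Inpp5d (17 peaks) had 2 higher and 1 lower in aged and 6 higher and 0 lower in young Tprog.

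Likeness of pattern was measured as Pearson's r of log2 locus totals over the 21 group means, among 11069 genes with a mean total of at least 200 normalized reads; it is a description, and the points share libraries and depth. Btla totals were most like those of Lrig1 (r = 0.987), Id3 (0.981) and Lonrf2 (0.981). Tigit was most like Fgd3 (0.951), Ank (0.936) and E230025N22Rik (0.931), and genes most like Cd160 included Spata48 (0.894) and Cox7a2 (0.889). Pdcd1 was most like Sult2b1 (0.872), Numb (0.866) and Apbb3 (0.864), Ctla4 like H2-Q1 (0.829), Slamf7 (0.829) and Ankrd54 (0.815), and Lag3 like Rapgef1 (0.828), Otud4 (0.809) and Znrf4 (0.793). Among the 6 receptors the highest values were 0.795 between Pdcd1 and Tigit, 0.789 between Cd160 and Btla and 0.668 between Ctla4 and Tigit, and the lowest was -0.311 between Tigit and Btla.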

How the data were processed

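ATAC-seq was measured in 48 libraries. The authors deposited 1 table of signal over 53868 peaks; the values are reads divided by a size factor per library, as the steps of the values show, and 100% of values gave whole reads within 0.01 read. The submitters' processing notes name mm10 and the tools Bowtie2 2.2.9, Picard 2.8.0, SAMtools 1.3.1, MACS2 2.1.1 and DESeq2 1.28.1, without roles.

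Peaks were assigned to RefSeq genes (GRCm38.p6). All libraries entered 1 limma 3.58.1 trend fit of 21 group means on log2(value + 1) in R 4.3.3, with p-values adjusted over all peaks. Alternatives were a pseudocount of 8, no weakest 25% of peaks, quantile normalization, the compared groups alone, a replicate block, edgeR 4.0.16 on recovered reads, a single value per group and each library left out. Peaks named were, by rule, each gene's strongest and start-site peaks and up to 3 called peaks per comparison with the largest change. Other called peaks described were chosen after their values were seen. These were Pdcd1 at 11.9 and 1.2 kb, Tigit at 34.6, 31.8, 26.1 and 13.6 kb, and Ctla4 at 55.2 and 11.5 kb from the start. The fit was also run on simulated libraries drawn independently, without pool, age or batch effects, so that run does not test the calls described here. The members and lists were chosen with earlier results of these data known. A marker gene and a gene compared for likeness are not reported here.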

Additional observations from a re-analysis of the deposited data

Results flagged for a closer look

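7 results differed between host ages by the test of the difference itself. Between Tprog and Tterm of OTC cells, the aged log2 fold change minus the young one was -0.57 (SE 0.12, limma adjusted p = 0.000968) at the strongest Lag3 peak, -0.38 (SE 0.10, adjusted p = 0.0249) at the Tigit start-site peak and -0.47 (SE 0.13, adjusted p = 0.0328) at the Pdcd1 peak 10 kb past the start. At that Pdcd1 peak Tprog had 721 and 739 normalized reads against 878 and 865 in Tterm of aged hosts, and 927 and 1063 against 842, 810 and 919 in young hosts. The Tigit and Pdcd1 differences were lost under quantile normalization (adjusted p = 0.411 and 0.131).

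Over Tprog, Ttran and Tterm, without Ttad, the Zfp219 effect, aged minus young, was 0.91 (SE 0.25, limma adjusted p = 0.00965) at the Pdcd1 peak 39.3 kb upstream. At Tigit it was -0.34 (SE 0.11, adjusted p = 0.0342) at the peak 8.8 kb past the start and 0.33 (SE 0.09, adjusted p = 0.0133) at the peak 45.1 kb upstream. With a single value per group the Tigit values were not called (adjusted p = 0.213 and 0.19). Over the same states the Dusp5 effect differed by -0.26 (SE 0.07, adjusted p = 0.00918) at the strongest Lag3 peak.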

How the results depend on the processing

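Counts of the 44 peaks called stayed within 1.5 times in all 17 comparisons with a pseudocount of 8 and with the replicate block. For Dusp5 in young hosts the count went from 0 to 1 without the weakest 25% of peaks, with the compared groups alone and with edgeR. Under quantile normalization it went from 4 to 2 for Zfp219 in young hosts, from 3 to 1 for the state difference between ages and from 1 to 2 for the Dusp5 difference between ages. With the compared groups alone it was 2 in place of 7 for Ttad against Ttran and 10 in place of 6 for young Ttran against Tterm. With a single value per group it was 14 in place of 23 for age, 9 in place of 15 for Zfp219 and 2 in place of 9 for Dusp5 in aged hosts, 1 in place of 4 for Zfp219 in young hosts, 1 in place of 3 for the Zfp219 difference between ages and 0 in place of 1 for the Dusp5 one. The Pdcd1 start-site value for Dusp5 in aged hosts changed sign under quantile normalization, to 0.01 (limma adjusted p = 0.836). Among the 134 calls of the 17 comparisons, quantile normalization lost 29, and 1 more changed sign.

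Leaving out each library gave 7 to 15 calls for Tprog against Tterm, 6 to 10 for Tprog against Ttran and 2 for Ttran against Tterm in aged cells. For Ttad it gave 2 to 6 against Tterm, 2 to 3 against Tprog and 3 to 5 against Ttran. The young ranges were 11 to 16, 5 to 8 and 3 to 6 in the same order as the aged ones. They were 20 to 24 for age, 11 to 16 for Zfp219 and 7 to 11 for Dusp5 in aged hosts, 3 to 6 and 0 to 1 in young hosts, and 1 to 3, 2 to 4 and 1 for the differences between ages by state, Zfp219 and Dusp5.

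Replicate numbers did not pair libraries: same-numbered libraries had correlations of deviations from -0.0148 to 0.0146 in aged and -0.0184 to 0.017 in young hosts. The replicate block lost 5 of the 134 calls. Peak strength limits precision, since the Btla peaks 9.3 and 62.2 kb past the start had under 35 normalized reads in OTC libraries outside Tprog. The cause of these changes was not tested.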
